A study of Mus musculus with 26 samples.

Results

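Hearts of sham-operated mice taken 3 wk after surgery were compared with hearts of sham-operated mice taken 10 d after surgery. The arrays were chosen by their labels alone and number 8 of the 26 in the series, 4 at each duration. A sham operation exposes the animal to anaesthesia, surgery and recovery without narrowing the aorta, so neither group carried a constriction. The other 18 arrays are 4 sham hearts at 48 h and 14 hearts after transverse aortic constriction (TAC), which loads the left ventricle with pressure, and the TAC hearts at 3 wk (5) and 10 d (4) are used here as other hearts of the same durations. The labels describe each sample as total RNA of mouse heart. Strain, sex, age, the part of the heart and the hour of collection are not in them, and they do not state whether different animals gave the RNA of different arrays; the p-values thus cover array-to-array spread, which may be partly technical.

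After a sham operation the heart passes through the wound and stress response of surgery and then goes on ageing under its normal load. Adult heart muscle runs mainly on fatty acids burnt in mitochondria, a programme under the nuclear receptor PPAR alpha, and its metabolism and electrical properties follow the hour of the day through the cell-autonomous circadian clock. In that clock the activators BMAL1 (gene Arntl) and CLOCK bind E-boxes and raise Per, Cry, Nr1d, Dbp and Tef genes, and PER, CRY and the NR1D (REV-ERB) proteins in turn repress the activators or their targets, so the 2 arms peak at opposite phases.

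Each array gave a linear fluorescence intensity for 12488 probe sets, with array medians of 951 to 1031 at 3 wk and 895 to 915 at 10 d. Intensities are on a log2 scale below, values under a floor of 7.39 were set to it, and a level cannot be set against that of another probe set. Heart muscle transcripts were among the highest on these arrays: Myh6, Myl2, Actc1, Tnni3, Tnnt2, Mybpc3 and Nppa had mean intensities from the 94.5th to the 100th percentile of the tested probe sets. Ratios of 3′ to 5′ signal, a sign of RNA integrity, gave a difference (3 wk minus 10 d) of 0.16 for Gapdh and -0.03 for Actb on the log2 scale (two-sided exact permutation p = 0.0857 and 0.743, n = 4 and 4; the smallest p this design allows is 0.0286). Per the array description files, the 10 d sham arrays shared 1 scan day and 1 chip lot, sham replicates 2 and 3 at 3 wk shared another of each, and sham replicates 1 and 4 at 3 wk have neither recorded. No recorded scan day held both durations, so among arrays with a recorded day duration cannot be told apart from scan day and chip lot.

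Across the whole array, 209 of 7297 tested probe sets (2.86%) differed between the sham durations at an adjusted p under 0.05 in a limma model of all 26 arrays. Of these, 78 (1.07%) were higher at 3 wk and 131 (1.80%) were lower, and 122 changed by at least 1.5-fold (54 higher, 68 lower). With each gene taken at its brightest tested probe set, 159 of 5564 genes (2.86%) passed, 52 higher (0.935%) and 107 lower (1.92%). The median size of their change was 0.61, and the range ran from -2.75 for Fmnl1 to 2.16 for Gsx1. The 4 arrays at 3 wk did not overlap the 4 at 10 d for 144 of the 159, against 721 of all 5564 genes (13.0%). The 159 were chosen by a test on these same arrays, which favours such separation. In bulk tissue, fewer cells of a type and less RNA per cell cannot be told apart. The split between directions depended on scaling: with arrays centred on their medians, where the median of all genes was -0.10 in place of 0.016, 388 probe sets passed, 39 higher and 349 lower (10.1% higher against 37.3%).

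The largest fall was in Fmnl1, a formin-like protein of actin assembly best known from blood cells. Its log2 intensity at 3 wk was 8.30, 7.65, 8.09 and 8.55 in replicates 1 to 4, against 11.15, 11.08, 10.57 and 10.77 at 10 d, a 6.72-fold fall (log2 -2.75, SE 0.41, adjusted p = 8.87e-04). The groups were far apart, and the 48 h sham mean of 8.48 was close to that of 3 wk. Kcnk3, a background potassium channel of heart muscle, read 10.43, 11.10, 11.13 and 11.44 at 3 wk and 12.73, 12.70, 12.80 and 12.76 at 10 d, a 3.30-fold fall (log2 -1.72, SE 0.24, adjusted p = 4.19e-04). The 10 d arrays were nearly equal, and again the 48 h mean (11.56) lay with the later hearts. Ago2, the Argonaute protein that cleaves targets of small RNAs, read 10.12, 9.74, 10.09 and 9.82 at 3 wk against 11.47, 11.01, 11.02 and 11.35 at 10 d (log2 -1.27, SE 0.23, adjusted p = 0.00342). Here every 48 h value was lower than every 10 d value, with a mean of 9.15.

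Tgfb1, the cytokine that drives matrix production by fibroblasts, read 10.59, 10.97, 9.05 and 10.54 at 3 wk and 11.51, 11.48, 11.64 and 11.84 at 10 d (log2 -1.33, SE 0.30, adjusted p = 0.0134). Replicate 3 at 3 wk was much lower than the rest, but all 4 arrays lay below the 10 d range. Ppara, the receptor that switches on fatty acid oxidation genes, read 11.23, 11.48, 11.44 and 11.39 against 12.06, 12.10, 12.27 and 12.61 (log2 -0.88, SE 0.16, adjusted p = 0.00266). Its order over the sham groups was 48 h (mean 10.03), 3 wk (11.38) and 10 d (12.26), with no overlap between any neighbours. Hspg2, the basement membrane proteoglycan perlecan, read 12.89, 12.44, 13.00 and 12.77 against 13.50, 13.58, 13.64 and 13.79 (log2 -0.85, SE 0.15, adjusted p = 0.00251). Xpr1, a phosphate exporter, fell 1.81-fold (SE of the log2 change 0.15, adjusted p = 0.00251).

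The other genes among the 15 largest falls without overlap were Tfeb, a transcription factor of lysosomal and autophagy genes (log2 -1.17, adjusted p = 0.0467), Snrk, a kinase related to AMP-activated protein kinase (-1.13, 0.0126), and Tef (-1.03, 0.0345), described with the clock genes. Lima1, an actin-bundling protein, changed by -0.94 (adjusted p = 0.0141). Tmem43, a nuclear envelope protein linked to inherited cardiomyopathy in humans, changed by -0.93 (adjusted p = 0.0307), and Txnl4a, a spliceosome protein, by -0.91 (adjusted p = 0.0350). In Lima1, Tmem43 and Txnl4a, replicate 1 at 3 wk was the lowest array (9.69, 9.54 and 10.14). The other 3 wk arrays ran from 10.72 to 11.11, 11.06 to 11.26 and 11.43 to 11.83. With only the recorded-day arrays, which lack replicates 1 and 4, they gave -0.55, -0.58 and -0.58, and none passed. With single arrays left out they passed in 8, 4 and 2 of 8 fits. For Dctpp1, a nucleotide pyrophosphatase, and Gpaa1, a subunit of the enzyme that attaches GPI anchors, the brightest probe set fell (-1.01 and -0.97, adjusted p = 0.0224 and 0.0294), whereas another probe set of the same gene gave 0.01 and 0.44.

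Among the rises, 3 of the largest were homeobox transcription factors known for roles in the embryo. Gsx1 read 10.06, 9.83, 9.99 and 9.98 at 3 wk and 7.39, 7.66, 8.30 and 7.87 at 10 d (log2 2.16, SE 0.56, adjusted p = 0.0324). Vax2 read 10.15, 10.41, 10.15 and 10.02 against 7.65, 7.67, 8.60 and 8.45 (log2 2.09, SE 0.38, adjusted p = 0.00320). Hoxd8 read 10.32, 9.67, 9.56 and 10.14 against 7.39, 8.14, 8.63 and 8.44 (log2 1.77, SE 0.41, adjusted p = 0.0165). All 3 were separated between durations, but their 10 d values lie close to the floor, and replicate 1 at 10 d was at it for Gsx1 and Hoxd8, so these fold changes depend on the floor. The filter asked for at least 4 arrays above 880.1. Among the sham arrays and the 3 wk and 10 d TAC arrays, Gsx1 exceeded this only in the 3 wk sham arrays. Gsx1 was thus tested only because the group called higher is high. Among the same arrays, Vax2 exceeded it in the 3 wk sham arrays and in replicates 4 and 5 of the 3 wk TAC arrays (9.86 each). Without the 3 wk sham arrays it would not have met the filter. Vax2 too was thus tested only because the group called higher is high.

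Angpt1, the vessel-stabilising ligand of the endothelial receptor Tek, read 10.33, 10.21, 10.14 and 9.84 at 3 wk and 8.75, 8.66, 9.01 and 9.36 at 10 d, a 2.27-fold rise (log2 1.18, SE 0.30, adjusted p = 0.0294). Among the sham arrays and the 3 wk and 10 d TAC arrays, Angpt1 too exceeded the filter only in the 3 wk sham arrays. It was thus tested only because the group called higher is high. Cldn5, the tight junction protein of endothelium, read 11.94, 11.20, 11.39 and 11.21 against 10.95, 10.38, 10.36 and 10.49 (log2 0.89, SE 0.17, adjusted p = 0.00402). Pdia3, a protein-folding enzyme of the endoplasmic reticulum, read 12.53, 13.10, 12.72 and 13.02 against a 10 d mean of 11.83 ± 0.20 (SD, n = 4; log2 1.01, SE 0.20, adjusted p = 0.00665). None of these overlapped between durations, and Pdia3 was lowest of all at 48 h (mean 10.77). The 48 h arrays were scanned on a day of their own. Other rises were Trappc5, a subunit of a vesicle tethering complex (1.16, adjusted p = 0.00251), Mtmr1, a myotubularin family phosphatase (1.11, 0.0196), Apobec2, a muscle member of the deaminase family (1.03, 0.00363), and Grpel2, a cofactor of the mitochondrial chaperone (1.51, 0.0122). Plekhh1 (1.07, 0.0461), Cfdp1 (0.83, 0.00786) and Dnajb4, a heat shock cochaperone (0.85, 0.0400), completed the 15 largest rises without overlap, together with Tyms-ps (1.52, 0.0440) and Gm7775 (1.49, 0.0312), whose names are those of copies that can share probes with a parent gene.

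**Figure D1:**
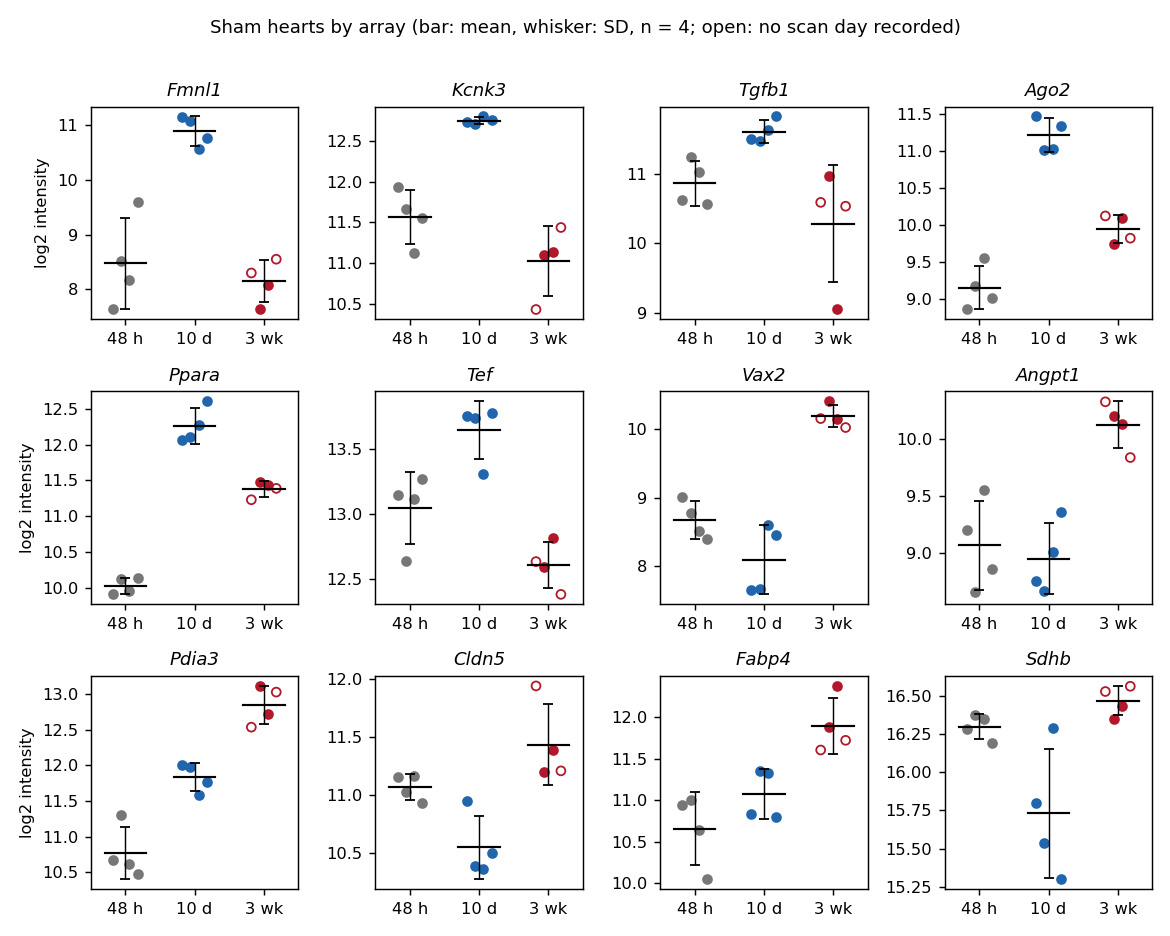
Log2 intensity of 12 genes that passed the test, in the 4 arrays of each sham group (x axis: time after surgery). Bars are means and whiskers SDs; open points are the 3 wk arrays with no scan day recorded. The 3 wk and 10 d arrays do not overlap in any panel, and open and filled 3 wk points lie on the same side of the 10 d arrays.

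The 3 wk arrays with and without a recorded scan day lay on the same side of the 10 d mean for all 159 genes that passed, which the choice of the genes favours. Each kind of array alone (2 arrays against 4) gave fewer calls: 13 of the 30 largest changes passed with the recorded arrays only and 15 with the unrecorded arrays only. Another fit took scan day as a random block, with the 3 wk sham arrays of no recorded day put together as 1 block. Each block lay within 1 duration, so this fit cannot tell scan day from duration. With scan day as a random block, 50 of the 209 probe sets passed (14 higher, 36 lower, no others), among them Kcnk3 (adjusted p = 0.00226), Fmnl1 (0.00943) and, at 0.0159 each, Xpr1, Trappc5, Hspg2, Ppara, Vax2 and Ago2. Apobec2, Cldn5, Ccnd1, Prkaca, Pdia3 and Kcnj11 passed as well, and the other 35 of the 49 named genes that had passed did not, Tgfb1 (adjusted p = 0.0685), Tef (0.153) and Gsx1 (0.125) among them. The limit set by the filter for Vax2, described above, holds in this fit too. When single arrays were left out in turn, 14 of the 30 largest changes passed in all 8 fits. Fmnl1, Kcnk3 and Ppara passed in 8 of 8 and Tgfb1 in 7, whereas Angpt1, Lpl and Ifitm3 passed in 2 and Gsx1, Tfeb and Tef in 1, so those calls need nearly every array.

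Other probe sets of the same genes mostly did not follow. Of the 159 genes, 33 had 47 further tested probe sets. In the same direction lay 20 of these (42.6%), against 52.7% of the 1020 further probe sets of all genes, and 1 passed the test itself. For Klf9, a glucocorticoid-induced transcription factor, the probe sets gave -0.70 (adjusted p = 0.0199) and -0.87, and for Apobec2 1.03 and 0.45. For Ccnd1, the cyclin that opens the cell cycle, they gave -0.66 (adjusted p = 0.00498) and -0.17. For Lpl, Ndufv2 and Slc25a5, by contrast, the brightest rose and another was at -0.01, -0.02 and -0.03. That of Slc25a5 was dim (means 8.74 at 3 wk and 8.76 at 10 d), and a further Slc25a5 probe set gave 0.39. The 48 h sham mean was nearer to the 3 wk mean for 49 of the 159 genes (30.8%) and nearer to the 10 d mean for 110, and over all genes it was nearer to the 3 wk mean for 39.1%.

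Genes were also described in 43 groups, 28 pathways and 15 sets of cell type markers, by how many tested members passed and by the median change, which over all 5564 genes was 0.016. A member passed in 18 groups, and 28 of the 756 different genes in them passed (3.70%), close to the 2.86% of all genes. Counts of this size in single groups are therefore descriptions of named genes.

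**Figure D2:**
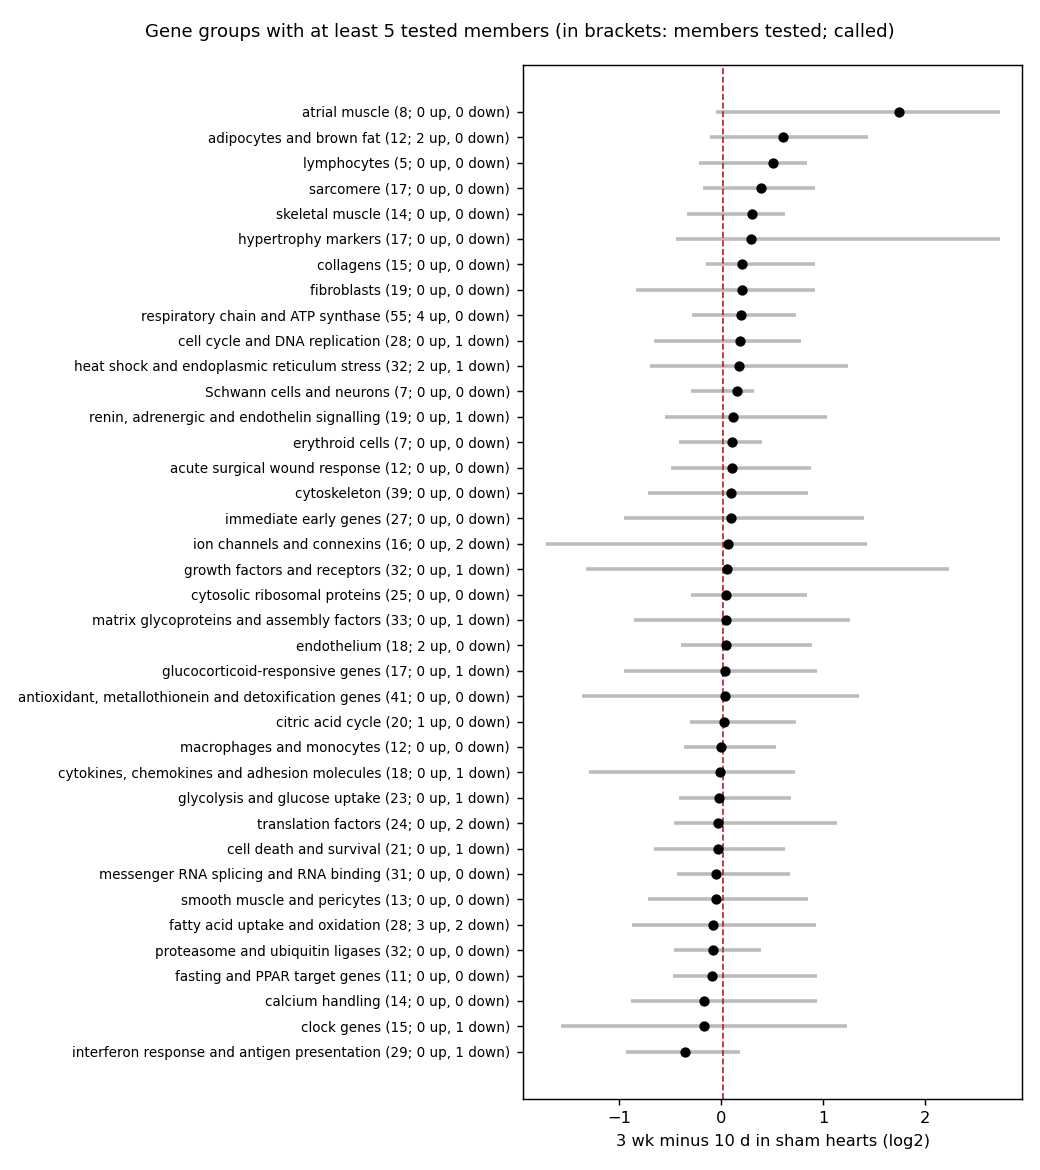
Change between 3 wk and 10 d sham hearts (log2, x axis) for each gene group with at least 5 tested members; points are medians, lines run from the lowest to the highest member, and the dashed line is the median of all genes. Atrial muscle (median 1.75) lies farthest to the right and interferon response and antigen presentation (median -0.35) farthest to the left, and neither has more than 1 member that passed.

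In the group of the respiratory chain and ATP synthase, which makes ATP in mitochondria, 4 of 55 genes rose and none fell (median 0.20, and 42 of 55 above 0). The 4 were Vdac2, a channel of the outer mitochondrial membrane whose groups overlapped (0.74, adjusted p = 0.0264), Cox7b, a subunit of cytochrome oxidase (0.51, 0.0241), Slc25a5, an exchanger of ADP for ATP (0.51, 0.0348), and Ndufv2, a subunit of complex I (0.46, 0.0442). Cox7b read 15.85, 15.87, 15.85 and 16.02 at 3 wk against 15.33, 15.44, 15.69 and 15.11 at 10 d, without overlap. In the citric acid cycle 1 of 20 passed, Sdhb, the iron-sulphur subunit of succinate dehydrogenase (0.74, adjusted p = 0.0241, 16.35 to 16.56 against 15.30 to 16.29). The group median of the respiratory chain was 0.10 with quantile normalization and, with median centring, 0.08, against -0.10 for all genes. In TAC hearts (3 wk minus 10 d) the median of this group was -0.07, against 0.03 for all genes.

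Fatty acid uptake and oxidation held members in both directions, 3 of 28 higher and 2 lower, with a median of -0.08. The genes that rose were Lpl, the lipase that frees fatty acids from circulating lipid (0.86, adjusted p = 0.0345), Fabp4, a fatty acid carrier of capillary endothelium and fat (0.82, 0.0339), and Fabp3, the carrier of heart muscle (0.51, 0.0299). Fabp3 read 16.71, 16.70, 16.84 and 16.77 at 3 wk and 16.15, 16.31, 16.44 and 16.07 at 10 d, whereas Lpl overlapped in 1 array (16.33 in replicate 3 at 10 d). Other genes of uptake did not pass, among them the transporters Cd36 (0.12, adjusted p = 0.758) and Slc27a1 (-0.32, 0.269). Ppara fell, as did Echs1, the enoyl-CoA hydratase of mitochondrial beta-oxidation (-0.51, adjusted p = 0.0144). In glycolysis and glucose uptake 1 of 23 fell, the hexokinase Hk2 (-0.40, adjusted p = 0.0306), and none of the 11 fasting and PPAR target genes passed. Pdk4 in that group, which holds back glucose oxidation, gave 0.94 (adjusted p = 0.135) and Oxct1, an enzyme of ketone use, -0.25 (adjusted p = 0.161).

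Fabp4 and Lpl are also fat cell markers, and they were the 2 of 12 genes of adipocytes and brown fat that passed (median 0.61, 9 of 12 above 0). The summed intensity of the 12 was 227707 to 255335 at 3 wk and 139620 to 219737 at 10 d, without overlap. In this and the other summed intensities below, the brightest members weigh most. Lpl read 16.24 to 16.54 at 3 wk and 15.05 to 16.33 at 10 d, and its other probe set gave -0.01. Adiponectin, Adipoq, which fat cells secrete, gave 0.71 (adjusted p = 0.286), and Cidea, of brown fat, -0.05 (adjusted p = 0.870). The part of fat tissue in the change of Fabp4 and Lpl was not tested.

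Among 16 genes of ion channels and connexins, 10 were above 0 and the median was 0.07 (-0.05 with median centring and -0.01 with cyclic loess). The 2 that passed both fell, Kcnk3 and Kcnj11, the pore subunit of the ATP-sensitive potassium channel. Kcnj11 read 12.52, 12.31, 12.35 and 12.74 at 3 wk and 13.03, 13.04, 13.02 and 13.27 at 10 d (log2 -0.61, SE 0.13, adjusted p = 0.00972). The other potassium channel genes Kcnj8 (-0.55, adjusted p = 0.149) and Kcnh2 (-0.52, adjusted p = 0.0837) lay lower at 3 wk without overlap but did not pass, and Kcnj5, of the same family as Kcnj8, gave 1.43 with overlap (adjusted p = 0.0882). None of 14 calcium handling genes passed, and Atp2a2, which encodes the pump that returns calcium to its store, gave 0.37 (adjusted p = 0.182). Prkaca, the catalytic subunit of protein kinase A, was the 1 of 19 genes of renin, adrenergic and endothelin signalling that passed (-0.55, adjusted p = 0.00665).

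Structural and growth programmes showed few or no calls. None of 17 sarcomere genes passed (median 0.39, 14 above 0; 0.18 with quantile normalization), with Myh6 at 0.33 (adjusted p = 0.249) and Tnni3 at 0.49 (adjusted p = 0.179). None of 17 hypertrophy markers did (median 0.29, and 0.17 with median centring): the natriuretic peptide genes Nppa and Nppb gave 1.43 and 0.37 (adjusted p = 0.205 and 0.332), Myh7 -0.44 (0.294) and Acta1 -0.02 (0.970). None of 15 collagens did (median 0.21, and 0.09 with median centring), although Col3a1 was higher in every 3 wk array (12.65 to 13.61) than in every 10 d array (11.80 to 12.27), with 0.92 and an adjusted p of 0.122. Col1a1 gave 0.21 (adjusted p = 0.710) and Postn, a matrix protein of activated fibroblasts, 0.47 (adjusted p = 0.477). Further probe sets gave 0.48 for Col1a1, and 0.58 and 1.06 for Col3a1, without passing. Without overlap, 4 of the 15 collagens were higher and 0 lower, against 313 and 408 of all 5564 genes. In TAC hearts (3 wk minus 10 d) the medians were -0.07 for sarcomere genes, 0.11 for hypertrophy markers and -0.12 for collagens. Among 33 matrix glycoproteins and assembly factors 1 fell, Hspg2, and among 32 growth factors and receptors 1 fell, Tgfb1.

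In heat shock and endoplasmic reticulum stress, Pdia3 and Dnajb4 rose and Hspa4, an Hsp110 family chaperone, fell (-0.41, adjusted p = 0.0248) among 32 genes, but the 4 further probe sets of Hspa4 gave 0.23 to 0.61. Pdia6, another disulphide isomerase, gave 0.53 (adjusted p = 0.0655) without overlap. Etf1 and Eif3b, which act in translation termination and initiation, fell among 24 translation factors (-0.46 and -0.34, adjusted p = 0.0237 and 0.0331), while the 4 further probe sets of Etf1 gave 0.18, 0.26, 0.04 and -0.38. Single members fell in cell death and survival (Bcl2l1, which protects from apoptosis, -0.56, adjusted p = 0.00664, 1 of 21), cell cycle and DNA replication (Ccnd1, 1 of 28), glucocorticoid-responsive genes (Klf9, 1 of 17) and cytokines, chemokines and adhesion molecules (Cxcl12, -0.39, adjusted p = 0.0499, 1 of 18, with further probe sets at 0.38 and -0.06). No gene passed among 12 genes of the acute surgical wound response, where the metallothionein Mt1, in every 3 wk array lower (14.31 to 14.60) than at 10 d (14.91 to 15.02), gave -0.50 (adjusted p = 0.0617), nor among 27 immediate early genes.

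Interferon response and antigen presentation had the lowest median of the groups with at least 5 tested members (-0.35), with 2 of 29 members above 0. Ifitm3, an antiviral membrane protein, was the 1 that passed: 14.20, 14.19, 14.35 and 14.19 at 3 wk against 14.57, 14.63, 14.65 and 14.63 at 10 d (log2 -0.39, SE 0.09, adjusted p = 0.0237). The class II antigen presentation genes H2-Aa (-0.73, adjusted p = 0.208) and Cd74 (-0.46, 0.374) were lower in every 3 wk array without passing. The interferon-induced GTPase Igtp varied more within groups than between them, from 9.82 to 12.99 at 3 wk and from 11.08 to 13.77 at 10 d. None of 12 macrophage and monocyte markers passed (median -0.01), and the summed intensity of these 12 was 50190 to 57292 at 3 wk and 51709 to 54243 at 10 d.

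The clock genes held 1 gene of 15 that passed, Tef, a PAR domain transcription factor under E-box control. It read 12.64, 12.59, 12.81 and 12.38 at 3 wk and 13.75, 13.73, 13.31 and 13.77 at 10 d (log2 -1.03, SE 0.27, adjusted p = 0.0345). Its relative Dbp read 10.44, 11.38, 11.33 and 11.03 against 12.65, 12.66, 12.71 and 12.46 (log2 -1.57, SE 0.47, adjusted p = 0.0647). Both were lower in every 3 wk array than in any at 10 d.

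The repressor genes Per1 (-0.95, adjusted p = 0.193), Nr1d1 (-0.39, 0.209) and Nr1d2 (-0.38, 0.378) also lay lower in every 3 wk array. On the activator arm, Arntl read 10.54, 10.46, 10.16 and 10.55 at 3 wk and 9.19, 8.91, 9.43 and 9.24 at 10 d (log2 1.24, SE 0.41, adjusted p = 0.0932). Clock gave 0.50 (adjusted p = 0.187), with 10.32 to 10.59 against 9.80 to 10.08. In all, 5 of the 15 clock genes were lower and 2 higher without overlap, against 13.0% of all genes in either direction. Cry1, Cry2, Rora, Nfil3 and Bhlhe40 gave values between -0.16 and 0.10.

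The TAC arrays bear on the clock genes in another way. Among the 5 TAC hearts at 3 wk, Dbp was 9.63, 10.10 and 11.95 in replicates 1 to 3, which share a scan day with sham replicates 2 and 3, and 12.33 and 12.69 in replicates 4 and 5, which were scanned on another day. Arntl was 10.94, 10.73 and 9.63 in the first 3 and 9.45 and 8.87 in the others. At 10 d the TAC values of Dbp were all between 12.37 and 12.53, against 12.46 to 12.71 in sham. Dbp and Arntl therefore spread more within the 3 wk TAC group than between the sham groups. Duration is the same within that TAC group, and Dbp ran from 9.63 to 11.95 in replicates 1 to 3, which share a scan day. Between the sham groups, the parts of duration, scan day and hour of collection (not given) cannot be told apart.

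**Figure D3:**
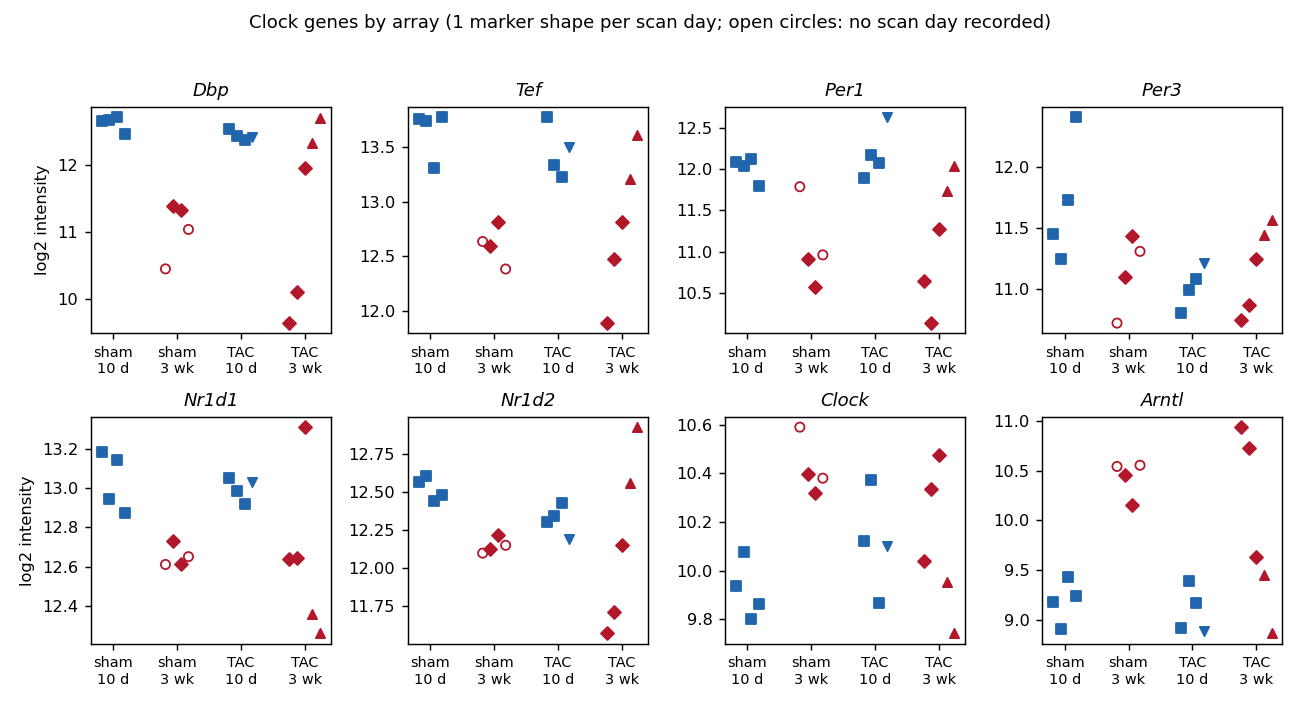
Log2 intensity of 8 clock genes in every sham and TAC array at 10 d and 3 wk; each marker shape is 1 recorded scan day and open circles have none recorded. Dbp and Tef are low and Arntl high in all 4 sham arrays at 3 wk, while the TAC arrays at 3 wk spread from the sham 3 wk level or beyond to the 10 d level.

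Promoter sequences are shown for the clock genes because the known control of this group is written in short motifs near the start of transcription. RefSeq promoters (GRCm38.p6, 250 bases before to 50 after the start) were found for 13 of the 15 genes, 21 promoters in all, and were searched on both strands for the E-box CACGTG, the D-box cores TTATGTAA and TTACGTAA, and the half-site AGGTCA of ROR and REV-ERB receptors; none of these motifs overlaps another in the promoters shown. An E-box stood in 4 promoters of Tef, Per1 and Cry1, a D-box core in 1 and the half-site in 5, while 7.15%, 0.938% (TTATGTAA), 0.119% (TTACGTAA) and 16.3% of all 32851 promoters hold them. Shown are both promoters of Tef, the gene that passed, with an E-box at base -127 (chr15:81802423-81802722, plus strand) and -138 (chr15:81811164-81811463, plus strand). Beside them stand 1 promoter each of Per1 (chr11:69098699-69098998, plus strand, E-box at -166 and half-site at -137), Per3 (chr4:151044616-151044915, minus strand, D-box cores at -205 and -158) and Arntl (chr7:113207261-113207560, plus strand, half-site at 32). Positions are counted from the start, and capitals mark the motifs.
Tef, upstream start: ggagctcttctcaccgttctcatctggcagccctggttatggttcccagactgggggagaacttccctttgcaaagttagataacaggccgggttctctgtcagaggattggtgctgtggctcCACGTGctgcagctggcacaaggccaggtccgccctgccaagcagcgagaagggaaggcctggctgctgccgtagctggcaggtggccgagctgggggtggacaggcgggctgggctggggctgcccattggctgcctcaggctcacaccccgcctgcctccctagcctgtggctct
Tef, downstream start: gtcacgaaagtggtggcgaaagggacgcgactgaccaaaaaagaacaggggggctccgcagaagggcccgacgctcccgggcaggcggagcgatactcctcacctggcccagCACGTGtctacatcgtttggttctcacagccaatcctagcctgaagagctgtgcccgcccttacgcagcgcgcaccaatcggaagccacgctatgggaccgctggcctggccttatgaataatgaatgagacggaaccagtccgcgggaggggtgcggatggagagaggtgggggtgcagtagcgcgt
Per1: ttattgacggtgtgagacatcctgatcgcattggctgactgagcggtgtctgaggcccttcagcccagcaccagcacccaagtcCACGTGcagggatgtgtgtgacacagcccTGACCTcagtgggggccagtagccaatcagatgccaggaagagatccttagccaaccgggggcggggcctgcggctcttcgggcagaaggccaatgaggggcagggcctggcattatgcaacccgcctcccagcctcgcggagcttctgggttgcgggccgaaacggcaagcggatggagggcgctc
Per3: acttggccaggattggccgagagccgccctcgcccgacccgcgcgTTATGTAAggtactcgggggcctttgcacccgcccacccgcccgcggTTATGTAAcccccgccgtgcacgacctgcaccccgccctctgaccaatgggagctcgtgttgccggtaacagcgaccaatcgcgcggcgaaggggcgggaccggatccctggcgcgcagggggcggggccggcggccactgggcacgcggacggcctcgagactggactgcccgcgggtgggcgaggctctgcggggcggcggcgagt
Arntl: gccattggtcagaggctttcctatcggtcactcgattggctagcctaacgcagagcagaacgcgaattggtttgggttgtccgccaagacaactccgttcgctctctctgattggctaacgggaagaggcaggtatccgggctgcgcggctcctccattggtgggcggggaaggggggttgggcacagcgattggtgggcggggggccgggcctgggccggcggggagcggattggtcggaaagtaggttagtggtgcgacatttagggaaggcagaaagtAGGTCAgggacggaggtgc
The lower genes Dbp, Nr1d1 and Nr1d2 held no E-box in these windows, which says only that these letters are not there. Per3, with its 2 D-box cores, gave -0.57 with overlapping groups (adjusted p = 0.148).

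Genes of atrial muscle, markers of tissue outside the ventricle, had the highest median of all groups (1.75, 7 of 8 above 0), and none passed. Myl4, the atrial myosin light chain, read 15.96, 16.30, 14.93 and 14.85 at 3 wk and 15.45, 12.85, 12.87 and 9.93 at 10 d (log2 2.73, adjusted p = 0.329; another Myl4 probe set gave 0.55). Myl7 gave 2.64 (adjusted p = 0.342), Bmp10, an atrial growth factor, 2.24 (0.158), and Dkk3 2.07 (0.101).

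Replicate 1 at 10 d lay within the range of the 3 wk arrays for Myl4, Myl7, Bmp10 and Dkk3, and replicate 4 at 10 d was lowest for Myl4 and Myl7. The summed intensity of the 8 genes was 87281 to 246168 at 3 wk and 14498 to 136044 at 10 d. These sums overlapped. Without replicate 1 at 10 d 160 probe sets passed, 135 of them among the 209. The part of atrial tissue in the other changes was not tested.

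**Figure D4:**
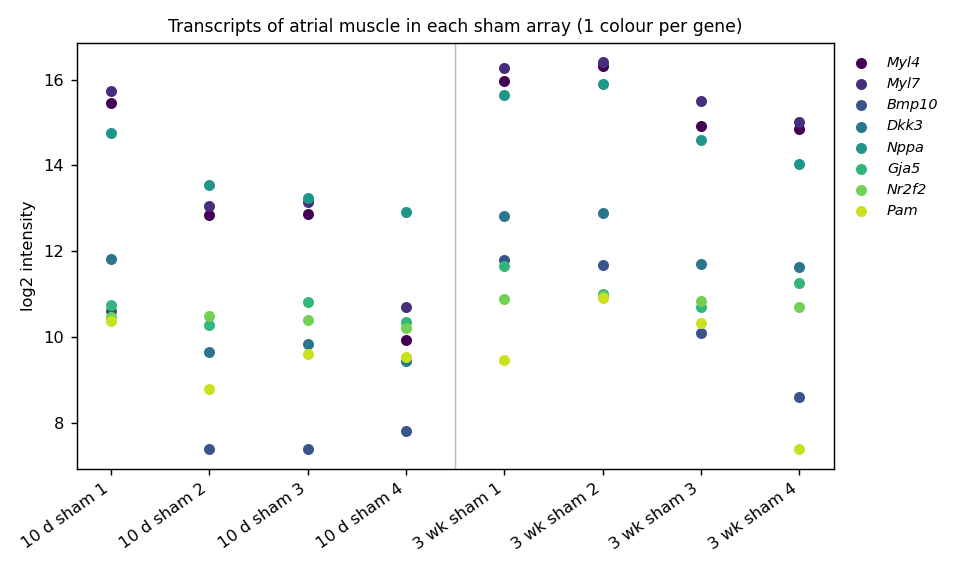
Log2 intensity of the 8 tested transcripts of atrial muscle in each sham array at 10 d and 3 wk. Myl4 and Myl7 lie between 14.85 and 16.41 in the 3 wk arrays and in 10 d replicate 1 and lower in the other 10 d arrays.

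In the other marker groups, endothelium had Cldn5 and Fabp4 higher among 18 genes (median 0.04), while Cdh5, a junction protein of all endothelium, gave -0.40 (adjusted p = 0.0764). None of 19 fibroblast markers passed (median 0.21) and none of 5 lymphocyte markers (median 0.51), whose summed intensity was 9668 to 12098 at 3 wk and 7804 to 9319 at 10 d, without overlap. The part of lymphocytes in the other changes was not tested. No member passed among smooth muscle and pericytes (13 tested), skeletal muscle (14), erythroid cells (7), Schwann cells and neurons (7), neutrophils and mast cells (4), sex-linked transcripts (4), thymus and lymph node (3), lung epithelium (2) and mesothelium (1). The pathway groups with no member that passed beyond those described were cytoskeleton (39 tested), antioxidant, metallothionein and detoxification genes (41), proteasome and ubiquitin ligases (32), cytosolic ribosomal proteins (25) and messenger RNA splicing and RNA binding (31).

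The TAC hearts of 3 wk and 10 d share no array with the sham contrast, though most of them share its recorded scan days. There, 288 probe sets (3.95%) differed between the durations, 137 higher at 3 wk and 151 lower (47.6% higher; 37.0% after cyclic loess and 22.6% after median centring). Of the 159 genes that passed in sham hearts, 137 had the same sign in TAC hearts (86.2%, against 64.1% of all genes), and 41 passed in the same direction, 8 higher and 33 lower. Fmnl1 fell by 2.80 in TAC hearts (adjusted p = 1.70e-04), and Kcnk3 fell by 1.85 (5.79e-05). Ago2 fell by 1.86 and Hspg2 fell by 1.11 (5.79e-05 each). Tgfb1 fell by 1.14 (adjusted p = 0.0225), Ppara by 0.74 (0.00628) and Kcnj11 by 0.44 (0.0432). Of the rises, Apobec2 rose by 0.71 (adjusted p = 0.0272) and Cfdp1 by 0.66 (0.0228), whereas Trappc5 gave 0.06 (0.895), Gsx1 0.39 (0.749) and Angpt1 0.24 (0.706). Scan day again coincides with duration here, and their parts cannot be told apart.

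The difference of the change between TAC and sham hearts was itself tested, and 2 probe sets passed (612 at an unadjusted p under 0.05). Cldn5 rose in sham hearts and fell in TAC hearts (log2 -0.57, adjusted p = 0.0403), a difference of -1.46 (adjusted p = 0.00514). The other, a probe set that names no single gene, gave 0.30 in sham (adjusted p = 0.178) and -0.74 in TAC hearts (adjusted p = 6.22e-04), a difference of -1.04 (adjusted p = 0.00514). For all other probe sets a difference between sham and TAC hearts did not pass, which does not show that the changes were alike.

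**Figure D5:**
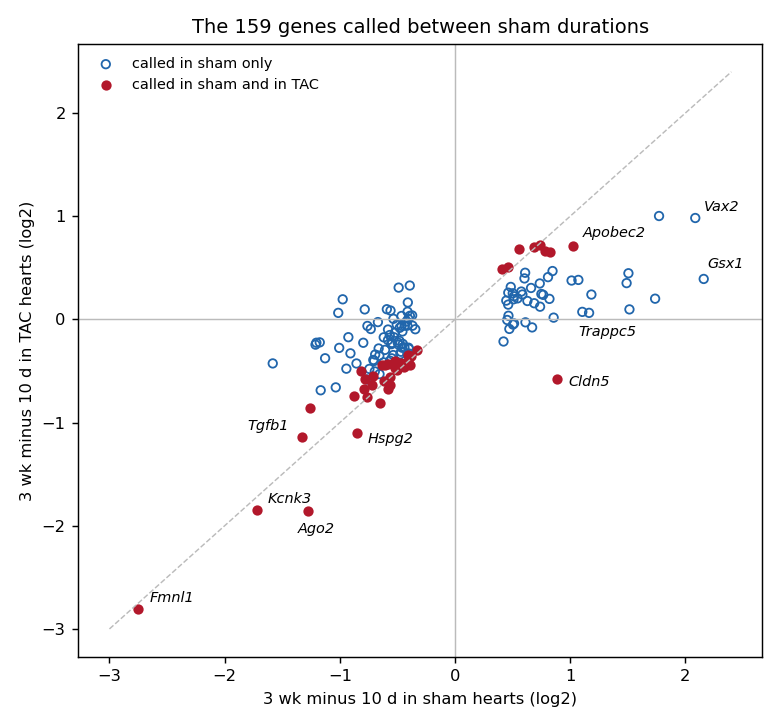
Change between 3 wk and 10 d in TAC hearts (y axis) against that in sham hearts (x axis), both log2, for the 159 genes that passed in sham hearts; filled points also passed in TAC hearts and the dashed line marks equal change. Fmnl1 and Kcnk3 lie near the line, Ago2 below it, and Cldn5 is the filled point of opposite sign.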

How the data were processed

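RNA of mouse heart was measured on MG_U74Av2 arrays, per the file headers. The values the authors deposited are linear intensities, 1 for each probe set on each array. How they were summarised and scaled is not stated in the sources used here; without the 66 controls, the 2% trimmed mean was nearly equal on all arrays (2474 to 2488), so values were used as deposited. Scan days and chip lots came from the array description files, and no column of values was left unused. Values under the 20th percentile (167.9) were set to it and log2 taken; probe sets above the median of all values (880.1) in at least 4 arrays were tested (7297 of 12488, of which 6584 name 1 gene, 248 several and 465 none in the probe table). A gene was represented by its tested probe set of highest mean.

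The 6 group means of all 26 arrays were fitted in 1 limma model (version 3.58.1, R 4.3.3; lmFit and eBayes, trend on), with Benjamini-Hochberg adjustment over all probe sets tested and calls at 0.05; every adjusted p above comes from it, except those named with scan day as a random block. It was tested on simulated data. RNA ratios had exact permutation tests. Named genes are the 15 largest rises and 15 largest falls among genes that passed without overlap of the groups, up to 4 passing members of each list (or, if none passed, the 2 of highest mean), and 12 fixed genes of hypertrophy, matrix, clock and sex, of which Per2 and Xist were not among the tested probe sets; other members of a described group were named after their values were seen. The comparison, the lists and the tests were chosen with earlier results of these data known. Precision is limited by how few arrays there are. Alternatives covered scaling, floor, filter, model, scan day, a replicate block and single arrays left out.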

Additional observations from a re-analysis of the deposited data

Results flagged for a closer look

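Single arrays stood apart from the other 3 of their group for 13 of 210 sets of 4 sham arrays looked at; chance alone gives about 1 in 20. Among genes that passed the test these were Kcnj11 (13.27 in 10 d replicate 4, others 13.02 to 13.04), Ifitm3 (14.35 in 3 wk replicate 3, others 14.19 to 14.20), Cox7b (16.02 in 3 wk replicate 4, others 15.85 to 15.87), Eif3b (13.46 in 10 d replicate 2, others 13.59 to 13.62) and Tef (13.31 in 10 d replicate 3, others 13.73 to 13.77). Larger gaps were those of Tmem43 (9.54 in 3 wk replicate 1, others 11.06 to 11.26) and Tfeb (7.76 in 3 wk replicate 2, others 8.67 to 8.83).

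Among genes that did not pass, 3 wk replicate 1 stood apart for Col1a1 (14.07, others 13.08 to 13.20), Ager (10.01, others 9.51 to 9.58) and Satb1 (10.27, others 10.92 to 10.97), and 3 wk replicate 2 for Myh6 (17.19, others 17.31 to 17.32). At 10 d, replicate 3 did for Sqstm1 (14.95, others 14.63 to 14.68) and replicate 4 for Des (12.80, others 13.13 to 13.18).

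The change from 10 d to 3 wk differed between TAC and sham hearts by a test of the difference for Cldn5 (-1.46) and for a probe set that names no single gene (-1.04), both at an adjusted p of 0.00514 in limma.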

How the results depend on the processing

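For the sham comparison, 209 probe sets passed. The count was 388 with median centring, 50 with scan day as a random block (correlation 0.116), 105 with only the arrays that have a recorded scan day, 86 with only the 3 wk sham arrays that have none, and 5 with an unmoderated test of unequal variances (1145 at an unadjusted p under 0.05). Leaving out 1 array gave 94 to 160, with 133 and 114 without 3 wk sham replicates 1 and 2 and 94 without 10 d sham replicate 4. The other settings gave 185 to 292, of which only the groups compared gave 208, with 125 shared. With a replicate block 185 passed, 173 of them among the 209; same-numbered sham arrays share only a number (correlations of their deviations from -0.01 to 0.03).

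For the TAC comparison (288), only the groups compared gave 162, the replicate block 184, scan day as a random block 89, the unmoderated test 7 and leaving out 1 array 129 to 264, with 133 and 129 without TAC 10 d replicates 1 and 3. The interaction (2) gave 4 with no filter and 4 with only recorded scan days, and leaving out 1 array gave 2 to 3. The Gapdh ratio difference ranged from 0.10 to 0.20 and that of Actb from -0.08 to 0.03 when 1 array was left out. Of 2664 values of 103 named genes under the alternatives, 56 had the other sign, all of genes that passed in neither fit. Fits that leave arrays out also have fewer arrays, and the cause of these shifts was not tested.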
